A study of Mus musculus with 145 samples.

Results

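Blood eosinophils of the mouse were compared with blood neutrophils on whole-transcript expression arrays from a reference survey of sorted immune cells. The comparison used 3 eosinophil arrays and 4 neutrophil arrays, and 1 array of eosinophils from visceral fat was read only for its levels. These 8 arrays, of 2 labelled blood groups and 1 fat group among 65 groups in the series, were found by their sample titles. The eosinophils were sorted from blood as SiglecF+ cells of high side scatter (SSChi, a sign of granules). Replicates 2 and 3 came from C57BL/6J males of 44 and 48 days, with MHCII, CD4 and B220 as exclusion markers. Replicate 5 came from a C57BL/6 male of 50 days, with only CD4 and B220 excluded. The neutrophils were SSChi Ly6Ghi blood cells of C57Bl/6J males, aged 7 weeks (replicate 4), 6 weeks (replicate 5), 43 days (replicate 6) and 48 days (replicate 7), with B220 and CD4 excluded. The fat eosinophils were CD11b+ SiglecF+ cells of a C57BL/6J male of 45 days, with B220 excluded. By their labels, none of these blood and fat groups carried a mutation, transgene or treatment. The arrays of a group carry different age labels, but the labels do not state whether an array is 1 animal or a pool. The p-values reflect array-to-array spread, and the part of it that lies between animals is not known.

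Eosinophils and neutrophils are the main granulocytes of blood. Both are short-lived, non-dividing cells that arise from a common myeloid pathway in bone marrow. Eosinophils depend on interleukin 5, follow eotaxins through the receptor CCR3, and store cationic proteins (major basic protein, eosinophil peroxidase and the eosinophil-associated ribonucleases) in crystalloid granules. Neutrophils depend on G-CSF, follow CXCL chemokines and formyl peptides, and fill primary, secondary and tertiary granules one after the other during maturation. GATA factors direct the eosinophil fate, and C/EBP factors serve both lineages. Granule protein messages are made mainly by precursors in the marrow, before cells enter blood.

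Values are deposited array intensities on a linear scale after RMA, a background correction, normalisation and probe summary. Differences are eosinophils minus neutrophils on the log2 scale, with the standard error (SE) and the adjusted p of limma, a linear model fitted to all probe sets together (Benjamini-Hochberg over all probe sets tested, called below 0.05). A probe set was tested where the higher group mean was at least 124, the middle intensity over the 7 blood arrays. No detection calls were used here, so folds against intensities near or under 124 carry no bound. Each gene was read on 1 probe set, the brightest over the 7 arrays, and the small number of arrays limits the precision of every value. In sorted cells measured in bulk, fewer cells of a type and less RNA per cell cannot be told apart.

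The sort labels matched the defining markers. Ccr3, the eotaxin receptor, read 8793, 7716 and 7912 in the eosinophils against 129, 127, 295 and 116 in the neutrophils. Ly6g, the antigen of the neutrophil sort, read 6084, 5803, 7193 and 5255 in the neutrophils against 92, 275 and 106 in the eosinophils. The groups did not overlap for either gene. Siglecf, the antigen of the eosinophil sort, was higher in eosinophils (1856, 952 and 1582 against 530 to 667; log2 1.23, SE 0.23, adjusted p = 0.0023, limma). Among the other antigens named in the sorts, Ptprc, whose splice form B220 was excluded, read 4157 to 5550 in eosinophils and 5723 to 6297 in neutrophils and did not pass. Itgam (CD11b) read 2104 to 4222 and 4128 to 4704 and did not pass either. H2-Eb1 read 189, 260 and 499 against 199 to 243 and did not pass.

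Array pairs of eosinophils correlated less with each other (Pearson r 0.922 to 0.945 over all probe sets) than array pairs of neutrophils (0.966 to 0.992). The median SD of a probe set was 0.297 on the log2 scale in eosinophils and 0.176 in neutrophils. Eosinophil replicate 2 correlated with neutrophil replicate 5 at 0.919, and the deviations of this pair from their group means correlated at 0.60. Leaving out both arrays gave 4588 called probe sets in place of 4834. The following genes set single eosinophil arrays apart, all chosen after their values were seen. Eosinophil replicate 2 read 1289 for Gzmb (68 and 40 in the other eosinophil arrays), 1354 for Il2ra (101 and 57.8), 385 for Cd3e (150 and 146) and 1428 for Cpa3, a mast cell and basophil protease (498 and 50.6). Among the probe sets that lay furthest above the other eosinophil arrays in replicate 2, 10 were of Srsy, a multi-copy gene of the Y chromosome. These 10 read 909 to 1851 in eosinophil replicate 2, 71 to 177 in replicate 3 and 26 to 65 in replicate 5, and 112 to 1523 over the neutrophil arrays. Any other probe sets of Srsy are not given here. Eosinophil replicate 5 read 1519 for Retnla (122 and 144), 575 for Cd74 (45 and 63.6) and 283 for H2-Aa (57.2 and 79.1), and MHCII was not excluded in its sort. It also read 1529 for Fosb (182 and 221) and 980 for Jun (160 and 167). Eosinophil replicate 3 had the lowest Alox15, at 1704 against 5487 and 4898. The part of these array differences in the results was not tested beyond the values given without single arrays.

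Markers of other blood cells were summed over each list. Calls in these lists stand beside the 35.4% of all probe sets tested that were called. The 7 T cell markers summed to 716 to 1415 in eosinophils and 839 to 922 in neutrophils, with the highest sum in eosinophil replicate 2. Of 5 tested, 1 was called, lower in eosinophils (20%). The 10 basophil and mast cell markers summed to 717 to 2348 and 438 to 543. In this list 7 genes were below the filter, and the 3 tested, Cpa3, Tpsb2 and Kit, were all called higher in eosinophils. Mcpt8, which defines mouse basophils and was chosen after its values were seen, read 24.2 to 53.2 and 35.7 to 55.2. The 6 platelet markers summed to 1747 to 3251 and 950 to 1150. Of 4 tested, Pf4, Itgb3 and Itga2b were called higher (75%). Ppbp, a further platelet gene chosen after its values were seen, read 49.4 to 60 and 31.3 to 55.6. The 12 monocyte and macrophage markers summed to 2093 to 3256 in eosinophils and 5221 to 5841 in neutrophils. Of these 7 were below the filter, and the 5 tested were all called, C1qa, C1qb and C1qc higher and Csf1r and Cd68 lower. The B cell (7 markers, 553 to 719 against 408 to 473), NK cell (7 markers, 362 to 464 against 323 to 373), erythroid (3 markers, 271 to 369 against 271 to 356) and dendritic cell lists (8 markers, 903 to 1075 against 756 to 840) were low. In each of these lists 1 gene was tested, and among them Batf3 was called, higher in eosinophils. Cpa3 differed by 3.29 (adjusted p = 0.015, limma), by 2.24 without eosinophil replicate 2, by 4.65 without replicate 5, and lost its call without replicate 3 (adjusted p = 0.06) and with trended robust variances over all arrays (0.082). Kit lost its call without eosinophil replicate 5 (adjusted p = 0.062) or neutrophil replicate 4 or 7 (0.057 and 0.063). Tpsb2 lost it without eosinophil replicate 2 (0.078) or any single neutrophil array (0.058 to 0.073), and Itga2b without eosinophil replicate 2 or 5 (0.057 and 0.076) or neutrophil replicate 6 or 7 (0.057 and 0.073). C1qa lost it without eosinophil replicate 2 (0.053) or neutrophil replicate 4 or 7 (0.06 and 0.05), and Csf1r without neutrophil replicate 4 (0.053). The part of these cell types in the results below was not tested.

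Eosinophils and neutrophils differed at 4834 of 13672 probe sets tested (35.4%), of which 1862 were higher in eosinophils (13.6%) and 2972 lower (21.7%). At least a 2-fold difference was seen at 2145 of them, 745 higher and 1400 lower. The group ranges did not overlap at 5730 probe sets (41.9%), with eosinophils above at 2376 (17.4%) and below at 3354 (24.5%). Over all probe sets tested the median difference was 0.01. Scaling moved the balance of directions. Quantile normalisation over the 7 arrays gave 2185 higher and 2208 lower, 49.7% higher against 38.5% of the main calls. A filter at the 75th percentile gave 1096 higher and 2783 lower, 28.3% higher.

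**Figure D1:**
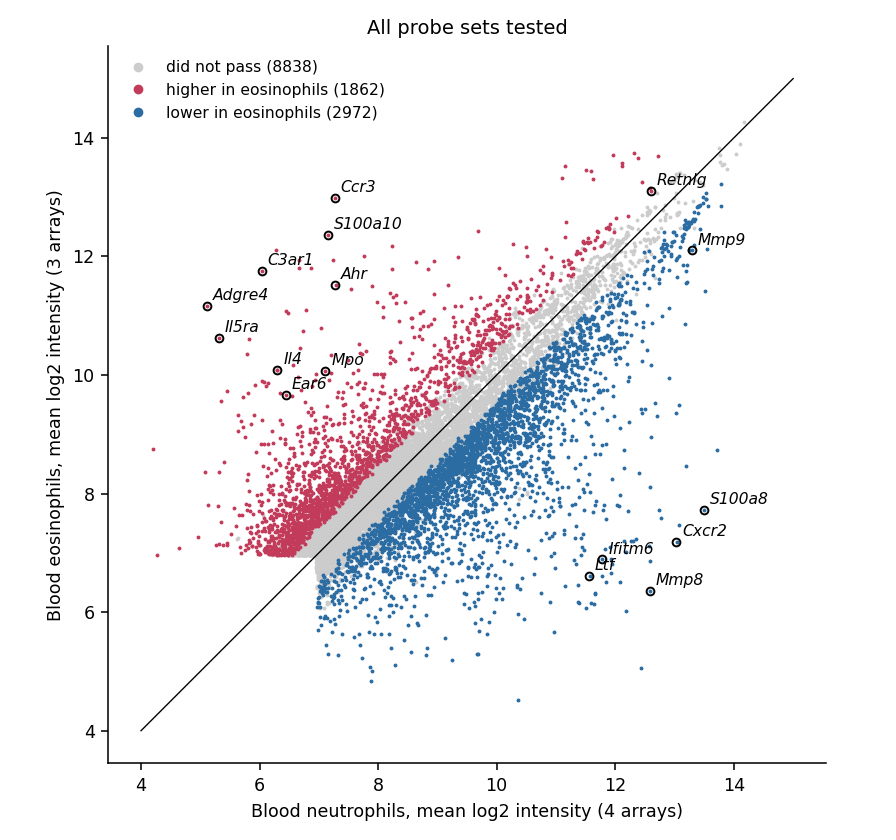
Mean log2 intensity of the 13672 probe sets tested in blood neutrophils (x axis, 4 arrays) and blood eosinophils (y axis, 3 arrays), each point 1 probe set, coloured by whether it was called higher (1862), lower (2972) or did not pass, with the line of equality. Ccr3 and Adgre4 lie far above the line and S100a8 and Mmp8 far below it, and Retnlg lies near it at high intensity in both cells.

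The 15 largest differences in favour of eosinophils were led by receptors and signalling genes. Adgre4, an adhesion receptor of the EGF-TM7 family, read 2660, 1928 and 2374 in eosinophils against 29.6 to 42.3 in neutrophils, a 66.1-fold difference (log2 6.05, SE 0.18, adjusted p = 3.5e-08, limma). Ccr3 was 52.8-fold higher (5.72, SE 0.30). C3ar1, the receptor for complement C3a, read 3021, 4600 and 2937 against 44.9 to 93.5 and was 52.3-fold higher. Il5ra, the ligand-binding chain of the interleukin 5 receptor, read 2320, 1237 and 1367 against 37.5 to 44.6 and was 39.7-fold higher (5.31, SE 0.22, adjusted p = 2e-07). Genes entered this set only where the groups did not overlap, so their separation was a condition of choice. S100a10, the partner of annexin A2, differed by 5.21, and Alox15, an arachidonate lipoxygenase, by 5.15. The remaining genes were P2ry14 (4.94), the UDP-glucose receptor, Man1a (4.77), a mannosidase of the Golgi, Inpp5j (4.71), an inositol phosphatase, Pdlim1 (4.63), Prkcq (4.57), a protein kinase C, P2ry10 (4.54), Reps2 (4.27), Cat (4.25), which encodes catalase, and Ahr (18.9-fold), the aryl hydrocarbon receptor. Ccr3, Il5ra, Inpp5j and Ahr had their highest group mean among the 65 groups of the series in blood eosinophils.

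The 15 largest differences in favour of neutrophils were led by granule, calcium-binding and receptor genes. Mmp8, neutrophil collagenase, read 7367, 5838, 5904 and 5552 in neutrophils against 50.2, 95 and 117 in eosinophils (log2 -6.22, SE 0.27, adjusted p = 2.6e-07, limma). Il1f9, an interleukin 36 cytokine, differed by -6.16. Cxcr2, the receptor for CXCL chemokines, read 6386 to 9829 against 66.3, 100 and 456 and differed by -5.86. S100a8, a subunit of calprotectin, read 10794 to 12256 against 78.9, 247 and 489 and differed by -5.78. Eosinophil replicate 5 had the highest eosinophil value of all 4 genes. Absence of overlap between the groups was a condition for entering this set too. Without replicate 5 the differences of Cxcr2 and S100a8 were -6.68 and -6.38, and without replicate 2 that of S100a8 was -5.06. Klra17 (-5.83), Chil1 (-5.72), Csf3r (-5.60), the G-CSF receptor, Arg2 (-5.58), a mitochondrial arginase, Ly6g (-5.44), Trem1 (-5.44), Phospho1 (-5.43), Il13ra1 (-5.37), Marcks (-5.35), Cd101 (-5.34) and Clec5a (-5.30) completed the set. The highest group mean of the series lay in blood neutrophils for 460 of the 1400 probe sets at least 2-fold lower in eosinophils (32.9%, against 6.29% of all tested). For the 745 at least 2-fold higher, it lay in blood or fat eosinophils at 63 (8.46%, against 10.4% of all tested). Of the 1421 probe sets behind the 10.4%, 1158 were highest on the unreplicated fat array and 263 in blood eosinophils. The 63 were not divided in this way. The pooled shares therefore cannot show how often eosinophil-high probe sets were highest in blood eosinophils.

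Of the eosinophil's own granule proteins, Ear6, Prg2 and Prg3 were higher in eosinophils. Of 16 listed genes 7 were on a probe set of their own, and these 3 passed the filter, while 4 did not. Every neutrophil array read under 124 for these 3, so they passed only through the eosinophils and the filter fixed their direction. All 3 were called, against 35.4% of all probe sets tested. Ear6, an eosinophil-associated ribonuclease, read 504, 1126 and 943 in eosinophils against 76.3 to 105 in neutrophils (log2 3.22, SE 0.26, adjusted p = 1.4e-05, limma). Prg2, major basic protein, read 178, 179 and 310 against 70.7 to 88.3 (1.47, SE 0.22). Prg3, its homologue, read 268, 253 and 263 against 101 to 109 (1.34, SE 0.13). The groups did not overlap for these 3 genes, as at 41.9% of all probe sets tested, and Prg3 varied least between eosinophil arrays. Epx, eosinophil peroxidase, read 89, 101 and 196 against 46 to 62.9 and did not reach the filter. Rnase2b read 47.1 to 55.1 against 24.1 to 33.5, and Rnase2a and Ear14 overlapped between groups at 58.2 or less. Prg3 and Ear6 had their highest group mean of the series in blood eosinophils.

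**Figure D2:**
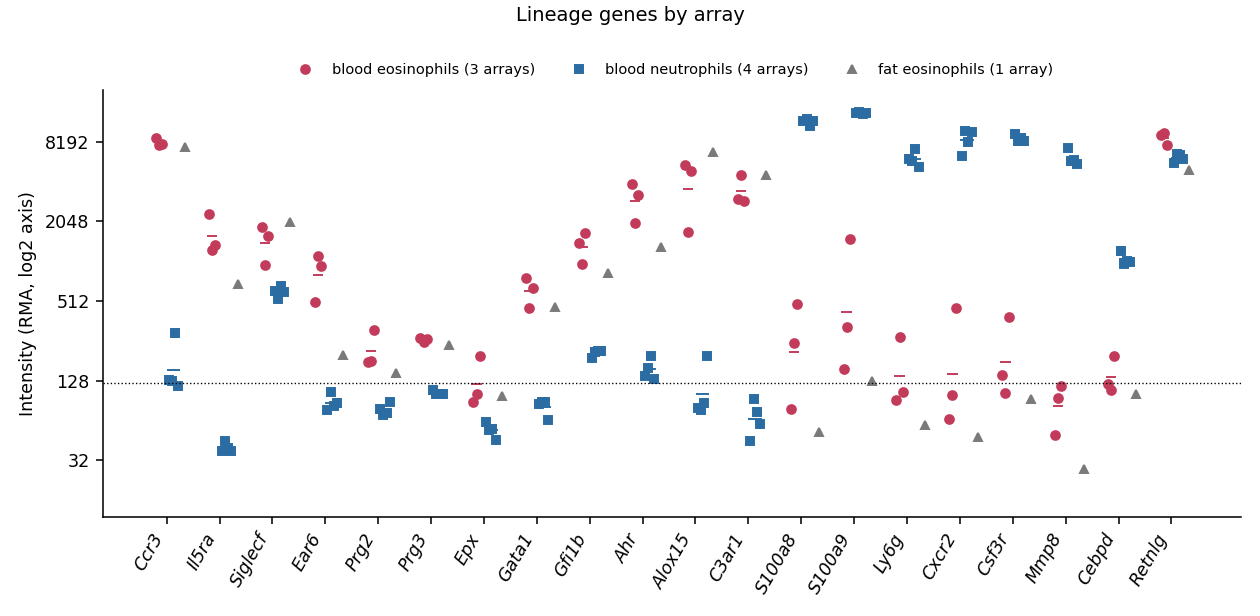
Intensity (log2 axis, RMA values) of 20 lineage genes on each array: blood eosinophils as circles, blood neutrophils as squares and the fat eosinophil array as triangles, with the group's geometric mean as a short line and the filter at 124 as a dotted line. Ccr3 sits between 7716 and 8793 in blood eosinophils and at 7452 in fat, while Retnlg is high in both granulocytes.

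Promoter windows of 3 eosinophil and 3 neutrophil genes show the sequences in front of genes that separate the lineages. They are the 250 bases before the transcription start in the RefSeq promoter table (GRCm38.p6), written 5′ to 3′ on the gene's strand. Capitals mark the motifs searched on both strands. These were GATAA for GATA factors, TTGCNNAA for C/EBP factors and AGGAAG for ETS factors such as PU.1. The genes were chosen, with their values and motif counts known, from 12 windows searched. For Ccr3 and Prg3 the start used by the promoter table differs from the gene's start in the RefSeq gene table.
Il5ra, chr6:106749038-106749287, minus strand: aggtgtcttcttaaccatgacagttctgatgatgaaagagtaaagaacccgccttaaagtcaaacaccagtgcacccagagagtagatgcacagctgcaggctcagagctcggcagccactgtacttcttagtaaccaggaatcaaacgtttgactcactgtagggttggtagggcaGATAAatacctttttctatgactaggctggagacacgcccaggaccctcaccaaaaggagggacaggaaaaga
Ccr3, chr9:124021721-124021970, plus strand: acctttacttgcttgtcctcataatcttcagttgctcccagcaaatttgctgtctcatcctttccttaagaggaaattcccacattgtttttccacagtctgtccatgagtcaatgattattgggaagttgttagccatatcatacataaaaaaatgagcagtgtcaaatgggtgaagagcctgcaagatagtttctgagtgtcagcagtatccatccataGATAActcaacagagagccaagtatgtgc
Prg3, chr2:84987965-84988214, plus strand: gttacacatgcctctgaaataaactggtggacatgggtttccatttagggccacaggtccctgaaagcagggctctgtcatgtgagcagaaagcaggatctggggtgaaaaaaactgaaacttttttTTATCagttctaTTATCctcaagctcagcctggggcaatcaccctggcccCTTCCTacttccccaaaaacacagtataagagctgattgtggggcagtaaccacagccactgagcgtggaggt
Ltf, chr9:111019042-111019291, plus strand: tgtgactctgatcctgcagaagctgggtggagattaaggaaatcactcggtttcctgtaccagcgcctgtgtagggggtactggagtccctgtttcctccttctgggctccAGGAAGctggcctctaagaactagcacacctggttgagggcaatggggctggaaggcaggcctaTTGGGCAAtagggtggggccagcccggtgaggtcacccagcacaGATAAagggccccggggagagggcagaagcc
Ngp, chr9:110419558-110419807, plus strand: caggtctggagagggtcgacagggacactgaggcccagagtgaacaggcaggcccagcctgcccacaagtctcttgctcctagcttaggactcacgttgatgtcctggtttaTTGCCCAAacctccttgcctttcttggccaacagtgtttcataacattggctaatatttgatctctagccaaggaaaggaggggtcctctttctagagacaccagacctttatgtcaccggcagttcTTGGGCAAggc
S100a8, chr3:90668821-90669070, plus strand: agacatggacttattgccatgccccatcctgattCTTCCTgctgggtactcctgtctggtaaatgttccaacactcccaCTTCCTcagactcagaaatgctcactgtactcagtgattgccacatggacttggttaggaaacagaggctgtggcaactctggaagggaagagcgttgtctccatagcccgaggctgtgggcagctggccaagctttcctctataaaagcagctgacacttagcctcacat

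In the windows printed, GATAA occurred at 1 place before Il5ra, 1 before Ccr3, 2 before Prg3 and 1 before Ltf. TTGCNNAA occurred at 1 place before Ltf and 2 before Ngp, and AGGAAG at 1 before Prg3, 1 before Ltf and 2 before S100a8. In the windows not printed, Ear6 and Epx held none of the 3 motifs, and GATAA and TTGCNNAA were absent before Gata1, Camp, Mpo and Elane, where AGGAAG occurred at 1, 2, 3 and 1 places. Of 27025 promoters in the table, 23% held GATAA, 9.55% TTGCNNAA and 29.2% AGGAAG. Among promoters of genes tested here (8542) the shares were 14.5%, 7.39% and 28.5%. Among 459 promoters of genes at least 2-fold higher in eosinophils they were 18.5%, 6.54% and 32.7%, and among 1002 of genes at least 2-fold lower they were 14.8%, 9.88% and 34.1%. The shares are descriptions of letters in a window, with no test, and a match is not a binding site.

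Neutrophil granule messages split by granule class. The secondary and tertiary granule list (25 genes, 22 measured and tested) had 16 members lower in eosinophils, 1 higher and 5 that did not pass. Its median difference was -1.71 against 0.01 over all probe sets, and 77.3% were called, against 35.4%. Ltf, lactoferrin, read 4971, 3158, 3300 and 1626 in neutrophils and 55.9, 92 and 182 in eosinophils (log2 -4.95, SE 0.43, adjusted p = 2.1e-05, limma). Lcn2, the siderophore-binding lipocalin, read 8942 to 10436 against 78.4, 522 and 1090 (-4.73, SE 0.69). The groups were far apart, but the eosinophil arrays differed among themselves, with replicate 5 highest. Hp, haptoglobin, differed by -5.10, Ngp, neutrophilic granule protein, by -4.04, Camp, the cathelicidin, by -3.15, and Cd177 by -3.11. Mmp9, gelatinase B and a neutrophil marker, read 5042, 3158 and 5318 in eosinophils and 9112 to 10900 in neutrophils, a 2.28-fold difference (adjusted p = 0.0014). Without eosinophil replicate 5 the difference was -4.97 for Ngp, -5.54 for Lcn2 and -5.76 for Hp, and without replicate 2 it was -3.35 for Ngp and -3.64 for Lcn2. Pglyrp1, a peptidoglycan recognition protein chosen after its values were seen, read 5057 to 6105 and 6541 to 6943 and did not pass (adjusted p = 0.13). The member that was higher, Cybb, is described with the oxidase.

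The granule proteases Elane and Ctsg and the peroxidase Mpo, on the primary granule list, were higher in eosinophils. Of 11 listed genes 9 were tested, 5 were higher, none was lower and 4 did not pass, with a median of 1.32. Calls fell on 55.6% of them, against 35.4% of all probe sets. Elane and Ctsg had neutrophil means under 124 and were tested only through the eosinophils, so the filter fixed their direction. The other 2 that were higher, Serpinb1a and Ms4a3, do not encode granule proteases, and the median is the value of Ms4a3. Mpo, myeloperoxidase, read 450, 880 and 3154 in eosinophils and 113, 153, 139 and 151 in neutrophils (log2 2.96, SE 0.52, adjusted p = 0.0018, limma). Elane, neutrophil elastase, read 276, 324 and 1436 against 90.7 to 136 (2.26, SE 0.49). Ctsg, cathepsin G, read 214, 290 and 1132 against 60.1 to 78.8 (2.53, SE 0.47). Replicate 5 was highest for all 3 genes, and every eosinophil array lay above every neutrophil array. Without replicate 5 the differences were 2.19 for Mpo and 1.80 for Ctsg, Elane was 2.8-fold higher in place of 4.78-fold, and without replicate 2 that of Mpo was 3.59. Serpinb1a, an inhibitor of these proteases, read 1053, 1081 and 1181 against 234 to 611 (1.56), and Ms4a3, a gene of granulocyte precursors, differed by 1.32. Prtn3, proteinase 3, chosen after its values were seen, read 120, 182 and 647 against 94.8 to 146 and did not pass (adjusted p = 0.091). Mpo and Elane had their highest group mean of the series in blood eosinophils. On the fat eosinophil array they read 140 and 101.

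**Figure D3:**
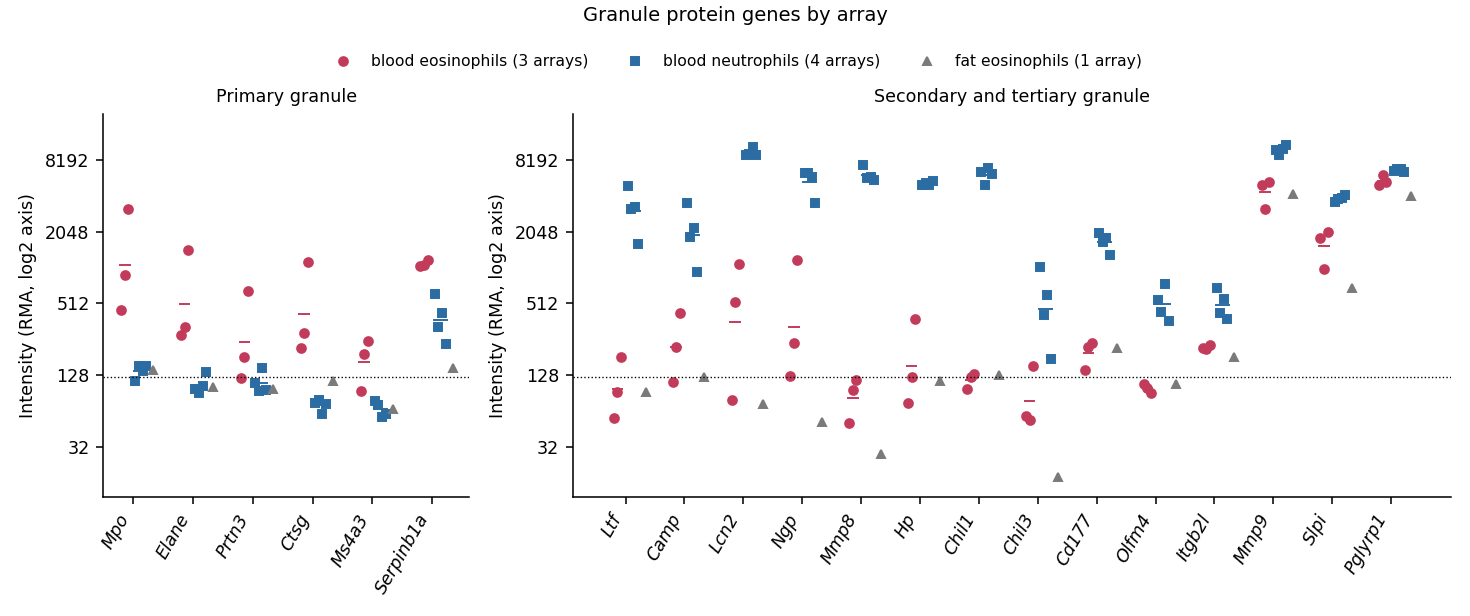
Intensity (log2 axis) of primary granule genes (left) and secondary and tertiary granule genes (right) on each array: blood eosinophils as circles, blood neutrophils as squares, the fat eosinophil array as triangles, the geometric mean as a short line and the filter at 124 as a dotted line. Mpo lies at 450 to 3154 in blood eosinophils and 113 to 153 in neutrophils, whereas Ltf lies at 55.9 to 182 and 1626 to 4971.

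Cytosolic and secreted neutrophil proteins were mostly lower in eosinophils. The list (23 genes, 19 measured, 16 tested) had 12 members lower, 1 higher and 3 that did not pass. Its median was -2.25, and 81.2% were called, against 35.4% of all probe sets. S100a9, the partner of S100a8, read 156, 325 and 1507 in eosinophils and 13239 to 13753 in neutrophils (log2 -4.99, SE 0.59, adjusted p = 0.00017, limma), -5.90 without eosinophil replicate 5 and -4.27 without replicate 2. Il1b, interleukin 1β, read 129, 122 and 452 against 6814 to 7371 (-5.18, SE 0.39). Anxa2 (-3.03), Stfa2 (-3.04), Il1rn, the interleukin 1 receptor antagonist (-2.90), Anxa1 (-2.62) and Wfdc21 (-2.48) were lower with no overlap. Retnlg, a resistin-like protein, read 9254, 9510 and 7702 against 5625 to 6664 and was 1.42-fold higher (adjusted p = 0.027). This call was lost when eosinophil replicate 2 (adjusted p = 0.069) or neutrophil replicate 4, 6 or 7 (0.078, 0.062 and 0.08) was left out.

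The NADPH oxidase, which makes superoxide in both granulocytes, was expressed in both. Of 9 genes tested 1 was higher in eosinophils and 4 were lower (55.6% called, against 35.4% of all probe sets). The other 4 did not pass. Ncf4, the p40 cytosolic subunit, read 634, 402 and 626 in eosinophils and 1749 to 2099 in neutrophils (log2 -1.82, SE 0.19, adjusted p = 7.1e-05, limma). Cybb, the catalytic membrane subunit, read 6589, 4158 and 6214 against 2655 to 4327 (0.74, SE 0.22, adjusted p = 0.025), so that the ranges overlapped. Its call was lost without eosinophil replicate 2 (adjusted p = 0.075) or 5 (0.072) and without neutrophil replicate 5 (0.05), 6 (0.065) or 7 (0.078). Cyba (-0.60), Rac2 (-0.59) and Rap1b (-0.59) were lower by small amounts, and none of these 3 passed after quantile normalisation (adjusted p = 0.14, 0.18 and 0.071). Ncf1, the p47 organising subunit, read 1864 to 4260 and 2409 to 3865 (0.02, adjusted p = 0.96). Rac1 (-0.45), Rap1a (-0.28) and Hvcn1 (0.82), the proton channel, did not pass. Rac1 and Hvcn1 passed without eosinophil replicate 3 (adjusted p = 0.0056 and 0.0027).

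Transcription factors divided between the cells. Of 51 listed genes 48 were tested, 12 were higher in eosinophils, 21 lower and 15 did not pass. Their median was -0.53, and 68.8% were called, against 35.4% of all probe sets. Gata1, the GATA factor required for eosinophils, read 768, 457 and 637 against 65 to 88.1 (log2 2.90, SE 0.21, adjusted p = 5.7e-06, limma). Gfi1b, a transcriptional repressor that acts in the erythroid and megakaryocyte lineages, read 1401, 975 and 1678 against 189 to 216 (2.67, SE 0.19). Ahr read 3928, 2000 and 3239 against 132 to 198 (18.9-fold, SE 0.24 on the log2 scale). The eosinophil arrays lay several-fold above the neutrophil range at these 3 genes. Ikzf2 (Helios) differed by 3.13, Myc by 2.76 and Id2 by 2.74, where Id2 read 4440 to 6155 against 718 to 939. Cebpd, a C/EBP factor, read 120, 109 and 198 against 973 to 1229 (-2.94, SE 0.22), and Mxd1, an antagonist of Myc, read 873 to 1461 against 5813 to 6548 (-2.44). The following factors were chosen after their values were seen. Cebpe, needed for late granulocyte maturation, read 846, 392 and 1213 against 425 to 570 and did not pass (0.55, adjusted p = 0.22), and its highest group mean of the series lay in blood eosinophils. Gata2 was higher by 0.58 (142 to 169 against 96.2 to 127, adjusted p = 0.018). Spi1, which encodes PU.1, was lower by a small amount (4913 to 5081 against 6353 to 8229, -0.54, adjusted p = 0.017).

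Cytokine receptors were mostly lower in eosinophils. Of 42 listed genes 31 were tested, 4 were higher, 22 lower and 5 did not pass. Their median was -1.06, and 83.9% were called, against 35.4% of all probe sets. Il5ra led the 4 that were higher. Csf3r read 141, 104 and 387 in eosinophils and 8307 to 9329 in neutrophils (log2 -5.60, SE 0.37, adjusted p = 3.3e-06, limma). Il1r2, the decoy interleukin 1 receptor, read 66.2 to 76.6 against 1804 to 2031 (-4.73), and Il13ra1, which pairs with the interleukin 4 receptor, read 57.4 to 95.6 against 2751 to 3553 (-5.37). The groups were far apart for all 3 genes. Receptors for tumour necrosis factor (Tnfrsf1a -3.70, Tnfrsf1b -2.53), interleukin 6 (Il6ra -3.49) and interleukin 10 (Il10ra -2.91) were lower too. The chains shared by interleukin 5, interleukin 3 and GM-CSF receptors were chosen after their values were seen. The common chain Csf2rb read 2051, 1250 and 2229 against 3926 to 4637 (-1.26, adjusted p = 0.0014). Csf2rb2, its interleukin 3 specific copy, read 934 to 1740 against 816 to 1146 and did not pass (0.55, adjusted p = 0.099). Il3ra was higher by 0.70 (358 to 568 against 266 to 304, adjusted p = 0.014), and Csf2ra, the GM-CSF receptor, read 1728 to 3909 and 3552 to 3752 (-0.30, adjusted p = 0.42).

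Receptors for chemoattractants and nucleotides went both ways. Of 46 listed genes 29 were tested, 9 were higher in eosinophils, 11 lower and 9 did not pass. Their median was -0.02, and 69% were called, against 35.4% of all probe sets. Beside Ccr3 and C3ar1, the receptor genes P2ry14 (3606, 3671 and 3474 against 96.2 to 132), P2ry10 (529, 285 and 522 against 16 to 20.5) and P2rx1 (2470, 494 and 2306 against 84.9 to 119) were higher, the last by 3.78 (SE 0.48, adjusted p = 0.00026, limma). Replicate 3 was the lowest eosinophil array for P2ry10 and P2rx1, and without it the P2rx1 difference was 4.53. P2ry13, an ADP receptor, ran the other way, at 210 to 251 against 2897 to 3423 (-3.85, SE 0.15). C5ar1, the receptor for complement C5a, read 165, 186 and 267 against 2278 to 2627 (-3.56). So the receptor for C3a was higher and the receptor for C5a lower, each without overlap. Ccr1, chosen after its values were seen, read 436 to 496 against 3360 to 3985 (-3.00, adjusted p = 4.3e-07), and Ltb4r1, the leukotriene B4 receptor, also chosen so, read 181 to 359 and 237 to 351 and did not pass (-0.09, adjusted p = 0.8).

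Adhesion genes differed in type. Of 38 listed genes 33 were tested, 10 were higher in eosinophils, 12 lower and 11 did not pass. Their median was -0.33, and 66.7% were called, against 35.4% of all probe sets. Itga2, an integrin chain for collagen, read 2211, 1298 and 1942 against 114 to 150 (log2 3.75, SE 0.21, adjusted p = 1e-06, limma). Its partner Itgb1 read 869, 735 and 1000 against 214 to 285 (1.85, SE 0.17). Pecam1, an endothelial and leukocyte adhesion molecule, read 489 to 884 against 196 to 237 (1.68). Emb, embigin, read 436, 85.9 and 293 against 3814 to 5008 (-4.27, SE 0.45), and -3.59 without eosinophil replicate 3. Cd82 (-2.12), Itgax (-2.03), which encodes CD11c, and Itga5 (-1.64) were lower without overlap. Itga4 of the VLA-4 integrin, chosen after its values were seen, read 5700, 4004 and 5672 against 2706 to 3169 (0.76, adjusted p = 0.007).

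Lectin-like and paired receptors were mostly lower in eosinophils. Of 61 listed genes of the Siglec, PIR, CD300, C-type lectin, TREM and EGF-TM7 families 38 were tested. Of these 5 were higher in eosinophils, 25 lower and 8 did not pass. Their median was -1.06, and 78.9% were called, against 35.4% of all probe sets. The 5 that were higher were Adgre4 and Adgre1 of the EGF-TM7 family, Siglecg, Siglecf and Cd300lg. Adgre1, which encodes F4/80, was chosen after its values were seen, and read 5097, 3859 and 5357 against 1155 to 1360 (log2 1.94, adjusted p = 1.8e-05, limma). Clec4d and Clec4e, receptors for fungal and mycobacterial glycolipids, read 67.6 to 158 and 101 to 123 in eosinophils against 3271 to 3638 and 3496 to 4324 in neutrophils (-5.16 and -5.14). Clec7a, Dectin-1, read 122 to 166 against 4304 to 5029 (-4.95), and Trem3 differed by -4.14. None of these overlapped between groups. Pirb, chosen after its values were seen, was near equal at 3499 to 6120 and 4538 to 5463 (-0.15, adjusted p = 0.59).

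Pattern recognition followed the lectins. Of 46 listed Fc, complement and pattern receptor genes 30 were tested. Of these 3 were higher in eosinophils (Naip5, Fcgr2b and Pycard), 22 lower and 5 did not pass. Their median was -1.0, and 83.3% were called, against 35.4% of all probe sets. Nlrp3, an inflammasome sensor, read 63.3 to 77.4 in eosinophils and 2369 to 3152 in neutrophils (log2 -5.24, SE 0.16, adjusted p = 3.5e-08, limma). Fcgr4, an activating receptor for immunoglobulin G, read 48.3, 67.2 and 115 against 2318 to 3155 (-5.21, SE 0.27). Toll-like receptors Tlr8 (-4.01), Tlr4 (-3.82), Tlr6 (-3.00) and Tlr2 (-2.70) and the inflammatory caspase Casp4 (-2.85) were lower. Naip5, a sensor of flagellin, read 1199, 727 and 1474 against 177 to 266 (2.43, SE 0.25). The inhibitory receptor Fcgr2b, chosen after its values were seen, read 1764, 2372 and 2235 against 357 to 450 (2.34, adjusted p = 5.4e-06). Thus the inhibitory immunoglobulin G receptor was higher and Fcgr4 lower. Fcgr3, a further immunoglobulin G receptor chosen after its values were seen, was also called lower but stayed high in both cells. Its mean log2 intensity was 11.499 in eosinophils and 12.099 in neutrophils.

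Lipid mediator genes went both ways. Of 36 listed genes 23 were tested, 7 were higher in eosinophils, 6 lower and 10 did not pass. Their median was -0.18, and 56.5% were called, against 35.4% of all probe sets. Alox15 read 5487, 1704 and 4898 against 76.8 to 197 (log2 5.15, SE 0.44, adjusted p = 2e-05, limma). Ptgdr2, the prostaglandin D2 receptor CRTH2, read 570, 358 and 834 against 115 to 135 (2.16, SE 0.25). Pla2g4a, the phospholipase that releases arachidonic acid, was higher by 1.92, Lta4h, leukotriene A4 hydrolase, by 1.60 and Tbxas1, thromboxane synthase, by 1.60. Each was higher on every eosinophil array. Ptgs2, cyclooxygenase 2, read 115, 199 and 143 against 700 to 1192 (-2.70), Ggt5, which acts on leukotriene C4, differed by -3.07, and Ptger2, a prostaglandin E2 receptor, by -2.49. Alox5 and Ltc4s, the enzymes toward leukotriene C4, were chosen after their values were seen. Alox5 read 2128 to 3763 and 3753 to 4564 (-0.40, adjusted p = 0.17) and Ltc4s read 138 to 157 and 104 to 146 (0.28, adjusted p = 0.21), and neither passed.

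Among cytokines, 31 of 33 listed genes were measured and 21 tested. Of those, 3 were higher in eosinophils, 6 lower and 12 did not pass (42.9% called against 35.4% of all probe sets, median -0.08). Il4, the type 2 cytokine, read 796, 1274 and 1275 in eosinophils and 70.7 to 88.8 in neutrophils (log2 3.79, SE 0.20, adjusted p = 7e-07, limma). Ccl9 was higher by 2.07 (1972, 1315 and 2306 against 387 to 479). Ccl6, the last of the 3, was chosen after its values were seen and was high in both (8971 to 9329 against 5786 to 6593, 0.56, adjusted p = 0.01). Il5 read 30.8 to 47.7 and 29 to 40.1 and did not reach the filter. Il13, also chosen after its values were seen, read 210, 152 and 233 against 126 to 156 and did not pass (0.50, adjusted p = 0.057). Tnfsf13b (BAFF) differed by -2.93, Tnfsf14 (LIGHT) by -1.31, Vegfa by -1.14, Cxcl10 by -0.86, Tgfbi by -0.72 and Osm by -0.69. The calls of Cxcl10 and Osm were lost without neutrophil replicate 6 (adjusted p = 0.083 and 0.067) or 7 (0.057 and 0.051). That of Cxcl10 was also lost without neutrophil replicate 5 (0.057) or eosinophil replicate 5 (0.078), and that of Osm without eosinophil replicate 2 (0.077). After quantile normalisation Tgfbi (-0.38, adjusted p = 0.11) and Osm (-0.34, 0.24) lost their calls.

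Interferon-response genes were lower in eosinophils as a group. Of 34 listed genes 25 were tested, 21 were lower, none was higher and 4 did not pass. Their median was -2.25 against 0.01 over all probe sets, and 84% were called, against 35.4%. Ifitm6, an interferon-induced transmembrane protein, read 106, 119 and 132 in eosinophils and 4010, 3428, 3760 and 2981 in neutrophils (log2 -4.89, SE 0.16, adjusted p = 5.6e-08, limma). Ifit3, an RNA-binding antiviral protein, read 120, 85.2 and 50 against 1559, 1581, 2260 and 1577 (-4.43, SE 0.28). Oas3, an oligoadenylate synthetase, read 134 to 190 against 1507 to 2262 (-3.50). The groups did not overlap at any of these. Ifitm1 (-4.11), Ifit1 (-3.95), Ifitm2 (-3.58), Ifi27l2a (-3.25) and Ifitm3 (-3.14) followed. Neutrophil replicate 6 was the highest neutrophil array for Ifit1, Ifit3, Oas3 and Ifi27l2a. Over all alternatives the list had 20 to 23 members lower and 0 higher. Receptors for interferons, chosen after their values were seen, were lower as well, Ifnar1 by -1.68 (322 to 609 against 1206 to 1442) and Ifngr2 by -1.79 (734 to 1716 against 4155 to 4628).

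**Figure D4:**
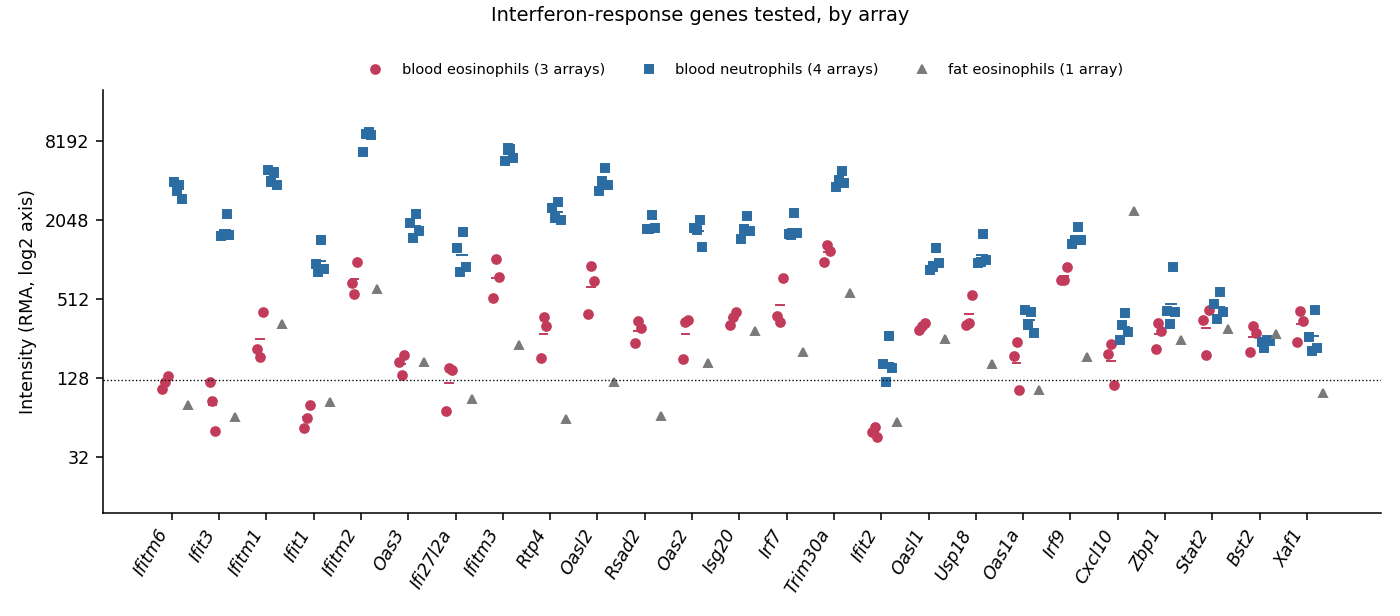
Intensity (log2 axis) of the 25 interferon-response genes tested, ordered by the difference between groups: blood eosinophils as circles, blood neutrophils as squares, the fat eosinophil array as triangles, the geometric mean as a short line and the filter at 124 as a dotted line. At Ifitm6 the eosinophils lie at 106 to 132 and the neutrophils at 2981 to 4010, and the 4 genes that did not pass lie at the right with overlapping ranges.

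Of 28 listed cell cycle genes 11 were below the filter and 16 were tested. Of these 8 were higher in eosinophils, none was lower and 8 did not pass (50% called against 35.4% of all probe sets, median 0.53). Ccna2 and Mcm6 had neutrophil means under 124 and were tested only through the eosinophils, so the filter fixed their direction. The other members were not divided in this way, and the absence of lower members is limited by the filter. Pcna, the replication clamp, read 875, 641 and 861 against 348 to 392 (log2 1.07, SE 0.16, adjusted p = 0.00073, limma), and Ccna2, cyclin A2, read 185, 183 and 251 against 83 to 118 (1.01). Mcm6 (0.92), Kif11 (0.72), Mki67 (0.67), Tyms (0.64), Ccnb2 (0.53) and Rrm2 (0.48) were the others. Mki67, the proliferation antigen, read 151 to 242 against 88.7 to 150, and eosinophils ranked at 41 among the 65 groups of the series for it. The count moved from 2 to 10 members over the alternatives, with 4 without eosinophil replicate 5, 4 without neutrophil replicate 7, and 5 without neutrophil replicate 5 or 6. Mki67 lost its call without eosinophil replicate 3 or 5 (adjusted p = 0.065 and 0.13) or neutrophil replicate 5, 6 or 7 (0.086, 0.073 and 0.094). Ccnb2 lost it without eosinophil replicate 3 or 5 (0.091 and 0.1) or any single neutrophil array (0.055 to 0.11). Tyms lost it without neutrophil replicate 7 and Rrm2 without neutrophil replicate 5 (0.066 each).

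The survival and metabolic lists differed in their counts. The survival list (34 genes, 23 tested) had 10 members lower, 1 higher and 12 that did not pass. Its median was -0.33, and 47.8% were called, against 35.4% of all probe sets. Bcl2l11, the death promoter BIM, read 136 to 233 against 481 to 677 (log2 -1.64, SE 0.21, adjusted p = 0.00025, limma), Bid differed by -1.51 and Xiap, a caspase inhibitor, by -1.27. Tnfrsf10b, a TRAIL receptor, was the member that was higher (0.99). Cflar (-0.92), Bmf (-0.96), Fas (-0.84) and Pim1 (-0.83) were lower, and Pim1 lost its call without any of eosinophil replicates 2 and 3 and neutrophil replicates 4, 6 and 7 (adjusted p = 0.065, 0.13, 0.11, 0.078 and 0.084). After quantile normalisation Fas (-0.47, adjusted p = 0.063) and Pim1 (0.21) lost their calls, and Pim1 did so with no filter (0.065). Glycolysis (28 genes, 23 tested) had 15 members lower, none higher and 8 that did not pass (median -0.80, 65.2% called). The glucose transporter gene Slc2a6 read 175 to 246 against 2766 to 3779 (-3.95, SE 0.18), and Pfkfb4 (-3.09) and Hk3, hexokinase 3 (-2.65), were also lower without overlap. Slc2a3 (-1.68), Gys1 (-1.77), Slc16a3 (-1.48), Slc2a1 (-1.25) and Pgam1 (-1.18) were lower. In contrast, mitochondrial respiration (36 genes, 33 tested) had 27 members that did not pass, 2 higher (Idh2 1.24 and Fh1 1.04) and 4 lower (Sdhd -1.22, Cs -0.85, Atp5b -0.67 and Sdha -0.52), with a median of -0.05. The called share of this list, 18.2%, was below the 35.4% of all probe sets. Of the 4 that were lower, Sdhd alone held its call without each neutrophil array, and only Sdhd held it after quantile normalisation.

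Called shares were 15.4% in the cholesterol list and 25% in the MHC class II list, against 35.4% of all probe sets. In the cholesterol list (22 genes, 13 tested) Msmo1 (log2 -1.34) and Abcg1, a cholesterol exporter (-1.51), were lower, and 11 did not pass, among them Hmgcs1 (0.21), Mvk (0.35), Mvd (-0.33), Fdps (0.52), Fdft1 (-0.05), Dhcr7 (0.09), Nsdhl (0.38), Srebf1 (-0.19), Srebf2 (0.43), Insig1 (0.05) and Abca1 (-0.49). In the MHC class II list (15 genes, 8 tested) H2-Oa was higher (237 to 349 against 85.6 to 125, 2.83-fold, adjusted p = 0.00031, limma) and Ctss, cathepsin S, was lower (-1.74). Cd74, the invariant chain, read 45, 63.6 and 575 against 275 to 370 and did not pass (-1.40, adjusted p = 0.16). It passed at -2.54 without eosinophil replicate 5 (adjusted p = 3.5e-05), the array whose sort did not exclude MHCII, and was -0.70 without replicate 2 (0.43). H2-Eb1 (0.46), H2-DMa (0.33), Cd80 (-0.86), Cd86 (-0.38) and Cd40 (0.30) did not pass. Without eosinophil replicate 2 H2-Eb1 and H2-DMa passed (adjusted p = 0.042 and 0.024), and without replicate 3 Cd80 passed (0.0073).

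**Figure D5:**
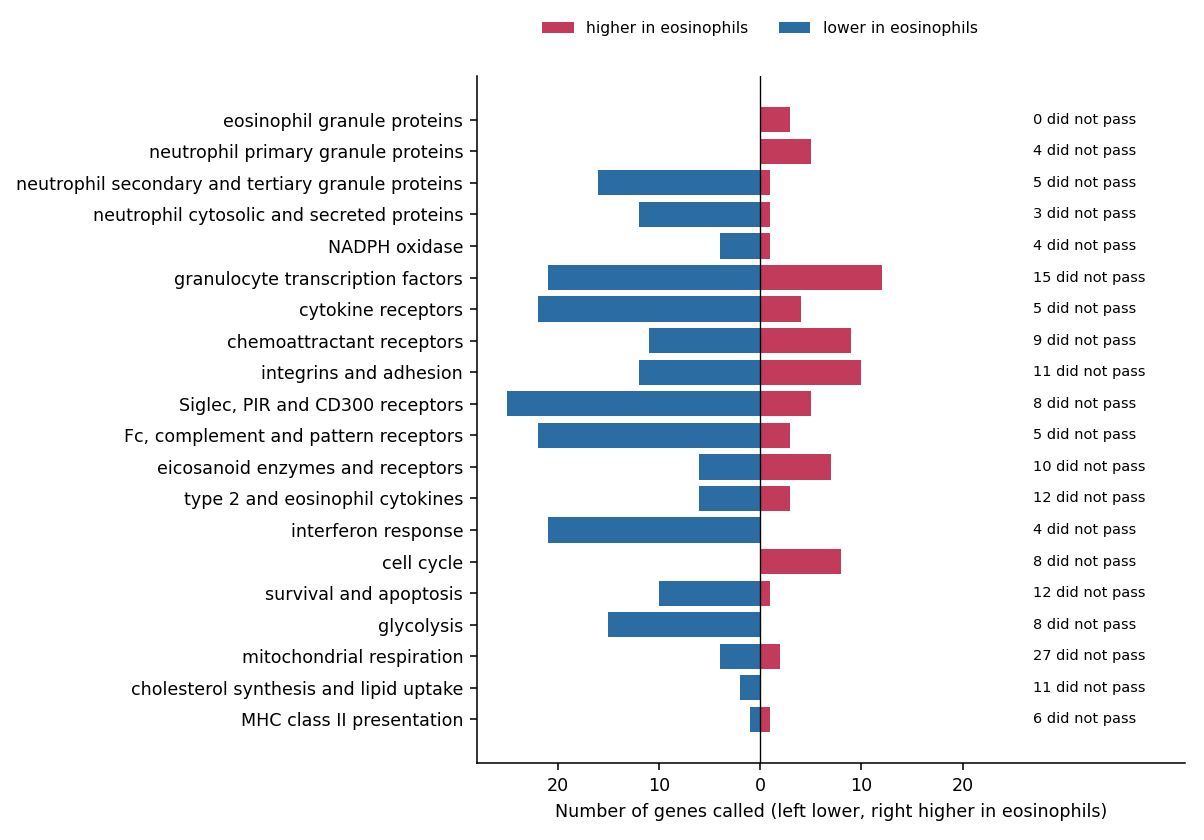
Number of genes of each list called higher (right, red) or lower (left, blue) in blood eosinophils than in blood neutrophils, with the number that did not pass at the right. The interferon-response list has 21 members lower and 0 higher, and the primary granule list 5 higher and 0 lower.

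The fat eosinophil array, 1 array with no replicate, kept the lineage genes and differed in others. It read 7452 for Ccr3, 693 for Il5ra, 2026 for Siglecf, 465 for Gata1 and 6877 for Alox15, and 52.5 for S100a8, 59 for Ly6g and 27.6 for Mmp8. It lay above the midpoint of the blood group means at 534 of the 745 probe sets that were at least 2-fold higher in blood eosinophils (71.7%), and below it at 1286 of the 1400 that were lower (91.9%). The sets were chosen on the blood arrays, and no such share was taken over all probe sets or in other groups. These counts therefore cannot show eosinophil identity. The fat array correlated with blood eosinophils at 0.920 to 0.927 and with neutrophils at 0.878 to 0.888. The genes furthest above all 7 blood arrays were chosen by that gap. Cxcl2, a neutrophil-attracting chemokine, read 5174 against 44.9 to 73.1 on the blood arrays, Il1a read 2648 against at most 38 and Il6 read 486 against at most 34.5. Nr4a3 (1391), Ccrl2 (2221), Bcl2a1c (1739), Tnfaip3 (4551) and Cxcl10 (2387) followed in that order. Il1b read 4008, between the blood eosinophils and the neutrophils. The fat array read 1225 for H2-Aa and 1592 for Cd74, and MHCII was not among its exclusion markers. Fat macrophages of the same series read 3759 for Cxcl2, 315 for Il1a and 9078 for H2-Aa, and the part of other fat cells in the fat array's values was not tested. Of the 25 interferon-response genes tested, the fat array lay below all 7 blood arrays at 13, among them Rsad2 (65.8), Oasl2 (119) and Irf9 (185), above all of them at 1, Cxcl10, and within their range at 11. The same share over all probe sets was not taken. Genes outside the list lay further below the blood arrays, such as Slc44a2 (a log2 gap of 2.54, against 1.84 for Rsad2). Whether the low values are particular to interferon genes was not tested.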

How the data were processed

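Total RNA from sorted cells was measured on whole-transcript arrays, with 3 arrays of blood eosinophils, 4 of blood neutrophils and 1 of fat eosinophils, grouped by their labels. The authors deposited intensities on a linear scale, made with Affymetrix Power Tools and RMA per the submitters' processing notes (no version is given there). RMA compresses differences at low intensity. Log2 was taken here. Of 24922 probe sets, 21425 carried 1 gene symbol in the platform annotation, 1399 several and 2098 none listed, and 21347 matched RefSeq identifiers (GRCm38.p6). The 2 groups were fitted with limma 3.58.1 in R 4.3.3 (lmFit and eBayes, two-sided, Benjamini-Hochberg, threshold 0.05) on the 13672 probe sets whose higher group mean reached 124. The steps were tested on simulated data for this comparison (13015 probe sets): 2% of changes of 0.5 on the log2 scale were called, 54% of changes of 1, 90% of 2 and 94% of 3, with 5 of 12815 unchanged probe sets called.

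The named genes are the 15 largest called differences each way, the 8 largest called of each list, all genes of the short eosinophil, oxidase, sort and lineage marker lists, and called members of other marker lists. Genes beyond these are stated as chosen after their values were seen. The members and lists were chosen with earlier results of these data known. Alternatives were no filter, a filter at the 75th percentile, quantile normalisation, adding 32 before log2, a fit over all groups, trended robust variances, the mean over a gene's probe sets, and leaving out each array. Leaving out 1 array of each group together was added after seeing the data. No 2 arrays of the series held identical values.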

Additional observations from a re-analysis of the deposited data

Results flagged for a closer look

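In 14 of 187 neutrophil results examined (7.5%), 1 array stood apart from the other 3 by Dixon's criterion, which chance meets in about 1 of 20 groups. Neutrophil replicate 7 stood apart for Alox15 (197), Cd101 (4529), Ngp (3538), Gata1 (65) and Fdps (79.8). Replicate 6 did so for Ccr3 (295), Osm (920) and Ifit3 (2260). Replicate 4 did so for Prg3 (109), Gfi1b (189), Clec7a (5029) and Naip5 (266), and replicate 5 for Phospho1 (2694) and H2-Eb1 (243).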

How the results depend on the processing

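No paired analysis was possible because the eosinophil and neutrophil arrays shared fewer than 2 replicate numbers. The number of called probe sets was 4834. It was 7665 in a fit over all groups of the series, where the cause was not tested, and 3599 to 4925 without single arrays. Differences of 2-fold or more numbered 2145, and 2064 to 2404 without single arrays. Under the other alternatives both counts stayed within 1.5 times. Of 2555 values of 186 named genes under alternatives, 2429 kept their direction and their side of the threshold, 99 lost the call, 27 gained it and 0 reversed. The calls lost came from 23 of 163 called genes. Of 900 list counts, 800 stayed within 1.5 times. The small number of arrays limits calls on small differences.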

Other observations

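At 111 named probe sets the highest group means of 64 groups (fat eosinophils left out) were those of blood eosinophils and blood neutrophils. Of these 2 were higher in eosinophils, 31 were lower and 78 were not called, a called share of 29.7% against 35.4% of all probe sets tested. The set holds genes that separate the cells, such as S100a9 (31.7-fold) and Camp (8.85-fold lower in eosinophils), and genes hardly above the next group, such as Col4a4 (0.01 on the log2 scale). Slco4c1, an organic anion transporter, read 859, 408 and 716 in eosinophils and 416 to 503 in neutrophils. Apobr, the apolipoprotein B receptor, read 855, 807 and 1519 against 968 to 1069, and G0s2, an inhibitor of triglyceride lipase, read 547, 297 and 587 against 307 to 559. The ranges of these 3 genes overlapped between the granulocytes, and all genes named here were chosen after their values were seen. Retnlg and Pglyrp1 belonged to the same set.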
